A study of Mus musculus with 6 samples.

Results

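The genes described here are 36 DNA replication genes, chosen by name because each codes for a part of the machinery that licenses and copies DNA or supplies its nucleotides. They were measured in mouse bone marrow cells that carry c-Kit (labelled c-Kit+), the receptor found on stem cells and early progenitors of blood, in a study that concerns RUNX1 and GATA2 in blood formation. Of 6 poly-A RNA libraries, 3 are labelled WT and 3 Runx1 KO by genotype, and both groups come from the same kind of cell. The labels give neither the strain, the age, nor which allele, deleter or time point was used to disrupt Runx1, and they do not say whether the libraries came from separate animals, so that p-values measure only the spread between these libraries. All 36 genes were among the 20097 genes listed in the files and all 36 passed the filter on low values, among 15410 genes tested.

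DNA replication is prepared by G1, when the origin recognition complex, CDC6 and CDT1 load rings of the MCM2-7 helicase onto chromatin. In S phase CDC45 and the GINS complex turn those rings into active helicases, polymerase alpha-primase lays down RNA-DNA primers, and polymerases delta and epsilon extend them with the sliding clamp PCNA, which the RFC complex loads. Many of these genes are textbook targets of the E2F transcription factors, and their RNA is most abundant in cells that cycle, which in bone marrow include the progenitors that carry c-Kit.

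The cells were checked first. Runx1 itself was counted at 3031, 2799 and 3497 normalised reads in WT replicates 1 to 3 and at 6648, 6720 and 5830 in the libraries labelled Runx1 KO, a log2 change of 1.04 (SE 0.10, limma adjusted p = 0.0016), so that its level went against the label; a count over the whole gene does not show which exons were present. Directions below are therefore those of the libraries labelled Runx1 KO. Normalised reads are read counts divided by a size factor of the library, and the libraries held 25894968 to 26793380 reads for WT and 23297526 to 24906754 for Runx1 KO. Mitochondrial genes took 1.12 to 1.23% of the reads in WT and 0.861 to 0.971% in Runx1 KO, and the part of this difference, and of the lower depth, in the results below was not tested. A floor of 3 reads corresponds to 2.88 to 3.14 normalised reads, which covers counting error only and lies far below every member.

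Most of the replication machinery was measured at similar levels in both groups, and the members that passed the test were all lower in the libraries labelled Runx1 KO. They were Rrm2, Tk1 and Tyms, which supply deoxynucleotides, Mcm5, a subunit of the replicative helicase, and Rfc2, a subunit of the clamp loader. These 5 are 13.9% of the members, against 21.9% of all tested genes that passed the same threshold (limma, adjusted p under 0.05, Benjamini-Hochberg over all genes tested). All genes split into 11.3% lower and 10.6% higher, and no member was called higher, where the log2 changes of members ranged from -0.60 for Rrm2 to 0.13 for Prim1; 9 members had an unadjusted p under 0.05, and edgeR and DESeq2 called no member higher either. Of the 36 members, 27 had a lower mean and 9 a higher mean in Runx1 KO; with library totals as scaling the lower ones were 23, and after removal of the 20 most abundant genes 24. The median log2 change of the members was -0.12 beside -0.0042 over all tested genes; it was -0.03 beside 0.08 with library totals as scaling, and -0.04 beside 0.07 after removal of the 20 most abundant genes. The median size of a change without its sign was 0.12 beside 0.23. The 95% interval of the change lay within 0.5 log2 units of 0 for 31 members, 86.1%, and for 44.4% of all tested genes. The members were also measured more precisely, with a median half-width of this interval of 0.18 beside 0.29 for all tested genes. Both comparisons depend on precision as well as on the change itself, and the 2 were not separated. In these bulk libraries fewer cells of a type and less RNA per cell cannot be told apart.

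**Figure D1:**
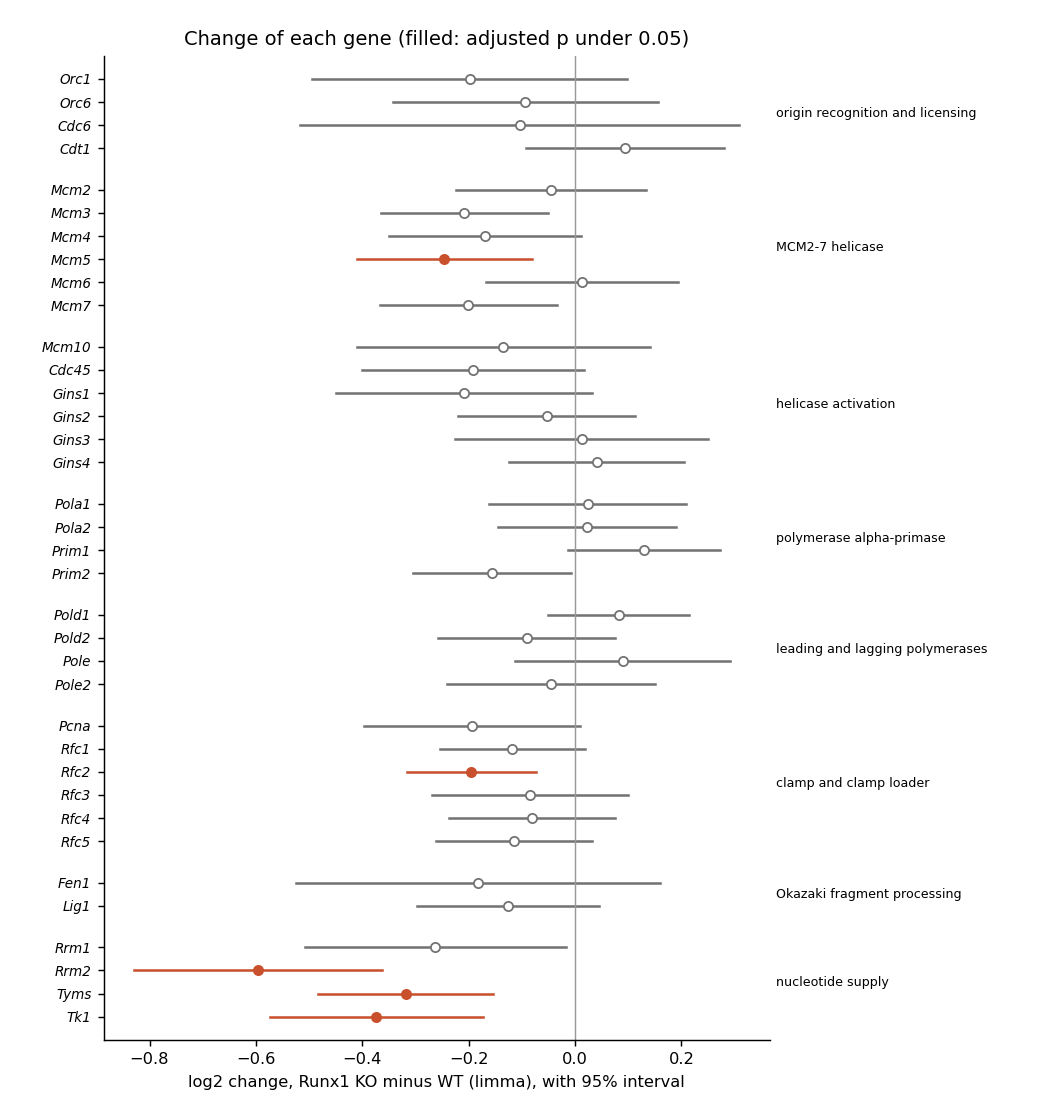
Log2 change between the 3 Runx1 KO and the 3 WT libraries for each replication gene, grouped by role, with the 95% interval from limma; filled points passed an adjusted p of 0.05. The 5 filled points, Mcm5, Rfc2, Rrm2, Tyms and Tk1, all lie left of 0, and the point farthest to the right is Prim1 at 0.13; with library totals as scaling Mcm2, Gins2, Pole2 and Rfc4 move to the right of 0.

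Per kilobase of exon, the members spanned levels from 3803 normalised reads for Pcna to 61.9 for Fen1, as means of the WT libraries. Pcna, Mcm6 at 3489, Mcm5 at 3468 and Mcm3 at 3434 had overlapping ranges over the WT libraries, and Mcm7 at 2906, Mcm4 at 2563 and Rrm2 at 2524 per kilobase followed. By this measure 5 of the 6 subunits of the helicase ring were among the 6 most abundant members, and the sixth, Mcm2, stood at 1713 per kilobase. The length used joins all annotated exons of a gene and exceeds the longest coding transcript by unequal amounts. It was 6956 bases against 3371 for Mcm2, 11012 against 3997 for Rrm1 and 4666 against 4355 for Mcm6. The order of the members therefore depends on the length used, and no other length was tried. At the low end, Pole2 at 262, Gins2 at 252 and Gins3 at 248 per kilobase overlapped in range over the WT libraries, and Orc1 at 173 lay below them. The low level of Fen1, the nuclease that trims Okazaki fragments, is uncertain: 84.2% of its exon bases lie opposite exons of Gm10143 or Tmem258 on the other strand, and whether counting used the strand is not stated in the sources used here. The same holds for Gins2, of whose exon bases 67.3% lie opposite Gse1. Exon bases were shared with another gene on the opposite strand by 12 members and on the same strand by 2 (Mcm7 with microRNA genes and Pole2 with Gm49384), and 23 members shared none.

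**Figure D2:**
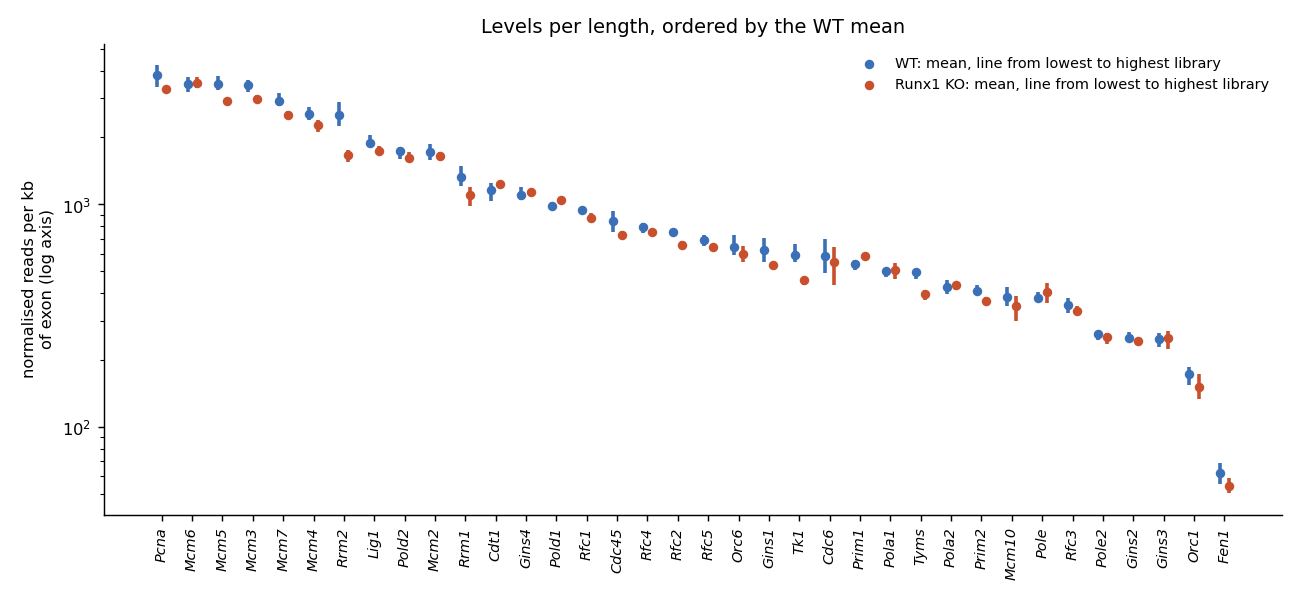
Normalised reads per kilobase of exon (log axis) of the 36 replication genes, ordered by the WT mean; points are means of 3 libraries and lines run from the lowest to the highest library. Pcna leads at 3803 in WT and Fen1 is last at 61.9, and Rrm2 shows the widest gap between the WT and Runx1 KO points. The order depends on the length used, which joins all annotated exons of a gene.

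Promoter sequence was looked at because E2F sites are the best known common feature of these genes. A window of 300 bases, 250 before and 50 after the annotated start, was available from RefSeq on GRCm38.p6 for 29 of the 36 members in 34 windows; Mcm4, Gins1, Gins2, Gins4, Prim2, Pole and Rfc2 had none. On either strand, 4 spellings of the E2F element were searched, TTTCCCGC, TTTCGCGC, TTTGCCGC and TTTGGCGC, of which matches on opposite strands can overlap. A match was found in 13 of the 34 windows, 38.2%, against 744 of 32851 windows of this length for all genes, 2.26%. The 13 genes with a match were Orc1, Cdc6, Cdt1, Mcm3, Mcm5, Mcm6, Mcm7, Gins3, Pola1, Pold1, Pole2, Rfc3 and Lig1. The CCAAT box, searched as CCAAT on either strand, was found in 55.9% of the member windows against 37.4% of all windows. A match is a description of letters and not a bound site.

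The windows of the called members that had one, and of Mcm6 as a helicase subunit whose level differed least among the 6, are printed 5′ to 3′ along the gene, with matches to the E2F spellings in capitals. Mcm6 lies on the minus strand at chr1:128359656-128359955, Mcm5 on the plus strand at chr8:75109259-75109558, Rrm2 on the plus strand at chr12:24708004-24708303, Tk1 on the minus strand at chr11:117825965-117826264 and Tyms on the minus strand at chr5:30073576-30073875.
Mcm6: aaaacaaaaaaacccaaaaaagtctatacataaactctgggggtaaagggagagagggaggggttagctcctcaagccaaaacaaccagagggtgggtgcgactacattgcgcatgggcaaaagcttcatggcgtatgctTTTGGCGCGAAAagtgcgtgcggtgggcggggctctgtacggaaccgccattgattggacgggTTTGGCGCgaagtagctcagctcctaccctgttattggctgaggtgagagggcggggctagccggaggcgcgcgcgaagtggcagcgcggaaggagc
Mcm5: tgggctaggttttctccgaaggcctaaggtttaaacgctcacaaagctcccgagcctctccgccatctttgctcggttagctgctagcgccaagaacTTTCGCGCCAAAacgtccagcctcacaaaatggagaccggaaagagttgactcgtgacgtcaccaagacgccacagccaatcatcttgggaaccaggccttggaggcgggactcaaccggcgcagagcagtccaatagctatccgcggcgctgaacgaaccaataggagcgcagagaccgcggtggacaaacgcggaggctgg
Rrm2: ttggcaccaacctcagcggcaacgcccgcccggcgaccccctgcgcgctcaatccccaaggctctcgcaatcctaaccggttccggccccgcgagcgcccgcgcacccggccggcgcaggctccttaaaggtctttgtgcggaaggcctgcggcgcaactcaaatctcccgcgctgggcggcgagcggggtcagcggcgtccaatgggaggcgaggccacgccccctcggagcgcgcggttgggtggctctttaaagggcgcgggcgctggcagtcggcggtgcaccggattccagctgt
Tk1: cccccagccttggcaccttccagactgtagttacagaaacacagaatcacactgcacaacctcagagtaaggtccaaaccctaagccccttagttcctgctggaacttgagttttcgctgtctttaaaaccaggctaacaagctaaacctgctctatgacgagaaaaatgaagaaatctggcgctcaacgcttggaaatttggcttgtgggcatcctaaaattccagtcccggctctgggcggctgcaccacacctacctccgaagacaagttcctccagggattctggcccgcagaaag
Tyms: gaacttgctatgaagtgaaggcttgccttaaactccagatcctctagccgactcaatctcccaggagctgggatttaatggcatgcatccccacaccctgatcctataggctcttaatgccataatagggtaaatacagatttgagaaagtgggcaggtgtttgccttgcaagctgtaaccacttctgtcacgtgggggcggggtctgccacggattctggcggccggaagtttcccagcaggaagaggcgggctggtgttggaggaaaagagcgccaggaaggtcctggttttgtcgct
In the Mcm6 window the 3 matches began 110, 106 and 47 bases before the RefSeq start, the first overlapping the next. In the Mcm5 window 2 overlapping matches began 153 and 149 bases before the RefSeq start. Gene positions in this text come from GENCODE, whose starts can differ. The GENCODE start of Mcm5, 75109569, lies past the end of the printed window. No capitals stand in the windows of Rrm2, Tk1 and Tyms, which says only that these 4 spellings are not in those 300 bases. Both helicase windows held matches. Mcm5 was called lower and Mcm6 had a log2 change of 0.01, and the part of these matches in the levels was not tested.

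The nucleotide supply genes showed the largest differences, with 3 of 4 called lower and none of the 4 overlapping between groups. Of all tested genes 11.3% were called lower, and 21.9% were lower without overlap. Rrm2 codes for the small, cell-cycle regulated subunit of ribonucleotide reductase, the enzyme that makes deoxynucleotides from ribonucleotides (chr12:24708241-24714146, plus strand). Rrm2 was counted at 6253, 7992 and 6735 normalised reads in WT and at 4312, 4654 and 4853 in Runx1 KO. Every Runx1 KO library lay below the lowest WT library, and the mean fell by 34.1%, from 6993 ± 898 to 4606 ± 274 (SD, n = 3 each). The log2 change of Rrm2 was -0.60 (SE 0.10, limma adjusted p = 0.0083), the largest among the members, and the call held under all 18 alternatives run, with adjusted p up to 0.0383. Transcripts of Rrm2 share 27.9% of their bases at 95% identity or more with the pseudogenes Gm48445 and Gm48455, which were counted at 0 to 4.97 normalised reads.

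Rrm1 codes for the large subunit of the same enzyme. It was counted at 13305, 16371 and 14118 in WT (mean 14598 ± 1588, SD, n = 3) and at 10819, 12449 and 13215 in Runx1 KO (12161 ± 1224). The groups did not overlap, but the highest Runx1 KO library came within 1% of the lowest WT library, and the log2 change of -0.26 (SE 0.10) missed the threshold with a limma adjusted p of 0.112. The ratio of Rrm2 counts to Rrm1 counts within a library, which no scaling of the library can move, was 0.470, 0.488 and 0.477 in WT and 0.399, 0.374 and 0.367 in Runx1 KO. The count of the small subunit was thus lower relative to the large one in every Runx1 KO library, though this ratio carries no test.

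Tk1 codes for thymidine kinase, which salvages thymidine in S phase (chr11:117815526-117826092, minus strand). It was counted at 2913, 3467 and 2869 in WT and at 2270, 2407 and 2438 in Runx1 KO. The groups did not overlap, WT replicate 2 stood above all others, and the mean fell by 23.1%, from 3083 ± 333 to 2372 ± 89.3 (SD, n = 3), a log2 change of -0.37 (SE 0.09, limma adjusted p = 0.023).

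Tyms codes for thymidylate synthase, which makes the thymidine nucleotide anew (chr5:30058202-30073617, minus strand). It was counted at 3098, 3138 and 2827 in WT and at 2267, 2510 and 2491 in Runx1 KO. Again the groups did not overlap, and the mean fell by 19.8%, from 3021 ± 169 to 2423 ± 135 (SD, n = 3), a log2 change of -0.32 (SE 0.07, limma adjusted p = 0.0204). The Tk1 call was lost without Runx1 KO replicate 2 (limma adjusted p = 0.077) or replicate 3 (0.0617), and the Tyms call without WT replicate 1 (0.0519), WT replicate 2 (0.0632), Runx1 KO replicate 2 (0.0605) or Runx1 KO replicate 3 (0.0545). Over the 18 alternatives the log2 change ran from -0.42 to -0.29 for Tk1 and from -0.37 to -0.24 for Tyms.

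**Figure D3:**
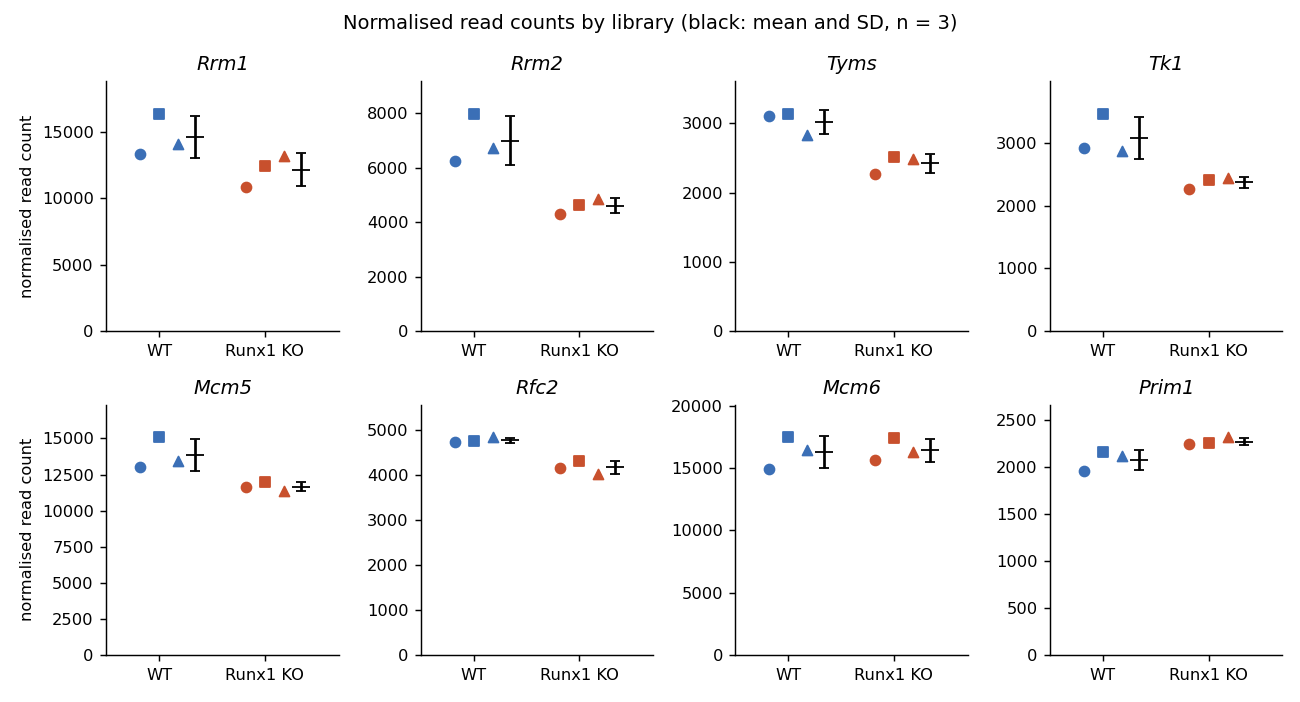
Normalised read counts (linear axis from 0) of 8 members in each library, with circles, squares and triangles for replicates 1, 2 and 3; black bars are the mean and SD of 3 libraries. Rrm1, Rrm2, Tyms, Tk1, Mcm5 and Rfc2 show every Runx1 KO library below every WT library, Mcm6 overlaps between groups, and Prim1 is higher in each Runx1 KO library without passing the test.

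The MCM2-7 helicase is a ring of 6 different subunits, and the 6 genes did not move as one. Mcm5 (chr8:75109569-75128439, plus strand) was the subunit called by limma, counted at 13031, 15073 and 13439 in WT and at 11635, 11996 and 11345 in Runx1 KO. The groups did not overlap, and the mean fell by 15.8%, from 13848 ± 1081 to 11659 ± 326 (SD, n = 3), a log2 change of -0.25 (SE 0.07, limma adjusted p = 0.0454). Mcm3 (-0.21, limma adjusted p = 0.0641) and Mcm7 (-0.20, 0.0842) also separated the groups but missed the threshold; DESeq2 called both (adjusted p = 0.0169 and 0.0352), and limma called Mcm3 without WT replicate 1 (adjusted p = 0.0454). Mcm4 (-0.17) overlapped between the groups. Mcm2 (-0.04) and Mcm6 (0.01) had the smallest differences, and the sign of Mcm2 turned with library totals as scaling (0.04) and after removal of the 20 most abundant genes (0.03).

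Mcm6 was counted at 14956, 17459 and 16430 in WT and at 15609, 17371 and 16248 in Runx1 KO, with a 95% interval of its log2 change from -0.17 to 0.19. The range of one group thus lay inside that of the other. The ratio of Mcm5 counts to Mcm6 counts was 0.871, 0.863 and 0.818 in WT and 0.745, 0.691 and 0.698 in Runx1 KO, the ratio of Mcm3 to Mcm6 was 0.781 to 0.801 against 0.669 to 0.699, and that of Mcm7 to Mcm6 was 0.755 to 0.816 against 0.669 to 0.689. In all 3 ratios the groups were apart; the ratios were chosen after the values were seen and carry no test. Of the Mcm7 transcript, 81.2% is shared at 95% identity or more with the pseudogene Gm5487 or the overlapping gene Ap4m1, of which Gm5487 was counted at 27.2 to 52.5 normalised reads. The Mcm5 call is near the threshold: it was kept without WT replicate 1 and lost without any other single library (limma adjusted p from 0.0752 to 0.147), and it was also lost with edgeR (adjusted p = 0.0507), with library totals as scaling (log2 change -0.16, limma adjusted p = 0.122) and after removal of the 20 most abundant genes (-0.17, 0.108).

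The clamp and its loader had 1 of 6 genes called, 16.7% beside 21.9% of all tested genes. Rfc2 (chr5:134581366-134601805, plus strand) codes for a small subunit of replication factor C, and was counted at 4717, 4742 and 4830 in WT and at 4155, 4306 and 4027 in Runx1 KO. The WT libraries lay close together and the groups did not overlap: the mean fell by 12.6%, from 4763 ± 59.3 to 4163 ± 140 (SD, n = 3), a log2 change of -0.19 (SE 0.05, limma adjusted p = 0.0373). The other subunits, which passed no test, ran from -0.12 for Rfc1 and -0.11 for Rfc5 to -0.08 for Rfc3 and Rfc4, where Rfc4 turned to 0.0012 with library totals as scaling. Leaving out any single library ended the Rfc2 call (limma adjusted p from 0.0616 to 0.136), as did library totals (0.185) and removal of the 20 most abundant genes (0.156). Of its exon bases 15.1% lie opposite Lat2, counted at 450 to 566 in WT and 331 to 474 in Runx1 KO; the part of Lat2 reads in the Rfc2 difference was not tested.

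Pcna, the sliding clamp, was counted at 8106, 10125 and 9154 in WT and at 7670, 8200 and 7988 in Runx1 KO, with a log2 change of -0.19 (SE 0.09, limma adjusted p = 0.149). WT replicate 1 lay within the Runx1 KO range, so the groups overlapped; without it Pcna was called lower (limma adjusted p = 0.0479). That library also held 765 normalised reads of the pseudogene Pcna-ps2, which shares 51.5% of the bases of the Pcna transcript at 95% identity or more, against 94.9 and 83.5 in the other two WT libraries and 52.3, 74.3 and 68.6 in Runx1 KO. The sum of the gene and its copy was 8871, 10220 and 9237 in WT and 7722, 8274 and 8057 in Runx1 KO, which did not overlap. How reads were shared between gene and copy is not stated in the sources used here, so the Pcna count of WT replicate 1 is uncertain.

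None of the 4 origin recognition and licensing genes passed the test. Orc1, the largest subunit of the origin recognition complex, had the lowest p of them and was counted at 536, 620 and 648 in WT (601 ± 58.3, SD, n = 3) and at 466, 507 and 604 in Runx1 KO (526 ± 70.8). Runx1 KO replicate 3 lay within the WT range, and the log2 change was -0.20 (SE 0.13, limma adjusted p = 0.293). Cdc6, a loader of the helicase, had the widest interval of all members, from -0.52 to 0.31, because its libraries spread from 2561 to 3658 in WT and from 2271 to 3372 in Runx1 KO. Orc6 (-0.09) and Cdt1 (0.09), the licensing factor destroyed once S phase begins, overlapped between groups too.

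None of the 6 genes of helicase activation passed the test. Gins1 had the largest difference and was counted at 835, 1076 and 914 in WT (942 ± 123, SD, n = 3) and at 810, 794 and 827 in Runx1 KO (810 ± 16.8). Its groups did not overlap, though WT replicate 1 came within 1% of the highest Runx1 KO library, and the log2 change was -0.21 (SE 0.10, limma adjusted p = 0.182). The other 3 GINS genes, whose products form 1 complex with that of Gins1, had log2 changes of -0.05 (Gins2), 0.01 (Gins3) and 0.04 (Gins4).

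Cdc45, the remaining partner in the active helicase, was counted at 2624, 3274 and 2934 in WT (2944 ± 326) and at 2455, 2674 and 2575 in Runx1 KO (2568 ± 110). WT replicate 1 lay within the Runx1 KO range, and the log2 change was -0.19 (SE 0.09, limma adjusted p = 0.16). Mcm10, which helps to start the helicase, had a log2 change of -0.13 with an interval from -0.41 to 0.14.

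Of the 9 members with a higher mean in Runx1 KO, 5 were polymerase genes, and none of the 8 polymerase genes passed the test. In polymerase alpha-primase the 2 primase subunits lay on opposite sides of 0. Prim1, the catalytic subunit that makes the RNA primer, was counted at 1958, 2166 and 2116 in WT and at 2244, 2259 and 2319 in Runx1 KO, a log2 change of 0.13 (SE 0.06, limma adjusted p = 0.167). Prim2, its partner, was counted at 2400, 2572 and 2339 in WT (2437 ± 121, SD, n = 3) and at 2112, 2169 and 2279 in Runx1 KO (2187 ± 85.1), a log2 change of -0.16 (SE 0.06, limma adjusted p = 0.118). Neither gene overlapped between groups, with Prim1 higher and Prim2 lower in every Runx1 KO library. The polymerase subunits Pola1 and Pola2 both had a log2 change of 0.02.

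Among the polymerases that extend the primers, the catalytic subunit of delta, Pold1, was counted at 4806, 4605 and 4973 in WT (4795 ± 184, SD, n = 3) and at 4982, 5273 and 4973 in Runx1 KO (5076 ± 171). The groups touched at 4973, a gap of less than 1 read, and the log2 change was 0.08 (SE 0.06, limma adjusted p = 0.327). Pole, the catalytic subunit of epsilon, had a change of 0.09 with an interval from -0.11 to 0.29, and the accessory subunits Pold2 and Pole2 had -0.09 and -0.04, of which Pole2 turned to 0.04 with library totals as scaling. Of the genes that finish Okazaki fragments, Lig1, the DNA ligase that seals them, was counted at 7708, 8801 and 7784 in WT (8098 ± 610) and at 7151, 7837 and 7249 in Runx1 KO (7412 ± 371). Runx1 KO replicate 2 lay within the WT range, and the log2 change was -0.13 (SE 0.07, limma adjusted p = 0.247). Fen1 had -0.18 at counts of only 122 to 166, with an interval from -0.53 to 0.16.

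Taking the members by library shows which ones set these differences. WT replicate 2 held the highest value of 28 of the 36 members, and Runx1 KO replicate 1 the lowest value of 21 while WT replicate 1 held the lowest of 7. The 36 genes summed to 170336, 197122 and 180695 normalised reads in WT and to 157610, 172287 and 167789 in Runx1 KO, so that WT replicate 1 lay within the Runx1 KO range. As a share of all recovered reads they took 0.643, 0.754 and 0.722% in WT and 0.647, 0.698 and 0.691% in Runx1 KO, and on that scale the WT range enclosed the Runx1 KO range. Without WT replicate 2 the median log2 change of the members was -0.06 and 2 members, Rrm2 and Tk1, were called, beside 13.9% of all genes. Without Runx1 KO replicate 2 or replicate 3 only Rrm2 was called, while the share called among all genes was then 8.75% and 11.3%. Without WT replicate 1 the median was -0.16 and 5 were called, with Mcm3 and Pcna in place of Tyms and Rfc2, beside 16.2% of all genes. The groups did not overlap, with Runx1 KO lower, for 11 members (30.6%), beside 21.9% of all tested genes, and with Runx1 KO higher for Prim1 and Pold1 beside 21.4%. The share on the lower side was above that of all genes and the share on the higher side well below it. Without the 4 nucleotide supply genes, 7 of 32 members (21.9%) were lower without overlap, the same share as of all tested genes. These counts were made on the deposited scaling and not with library totals.

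**Figure D4:**
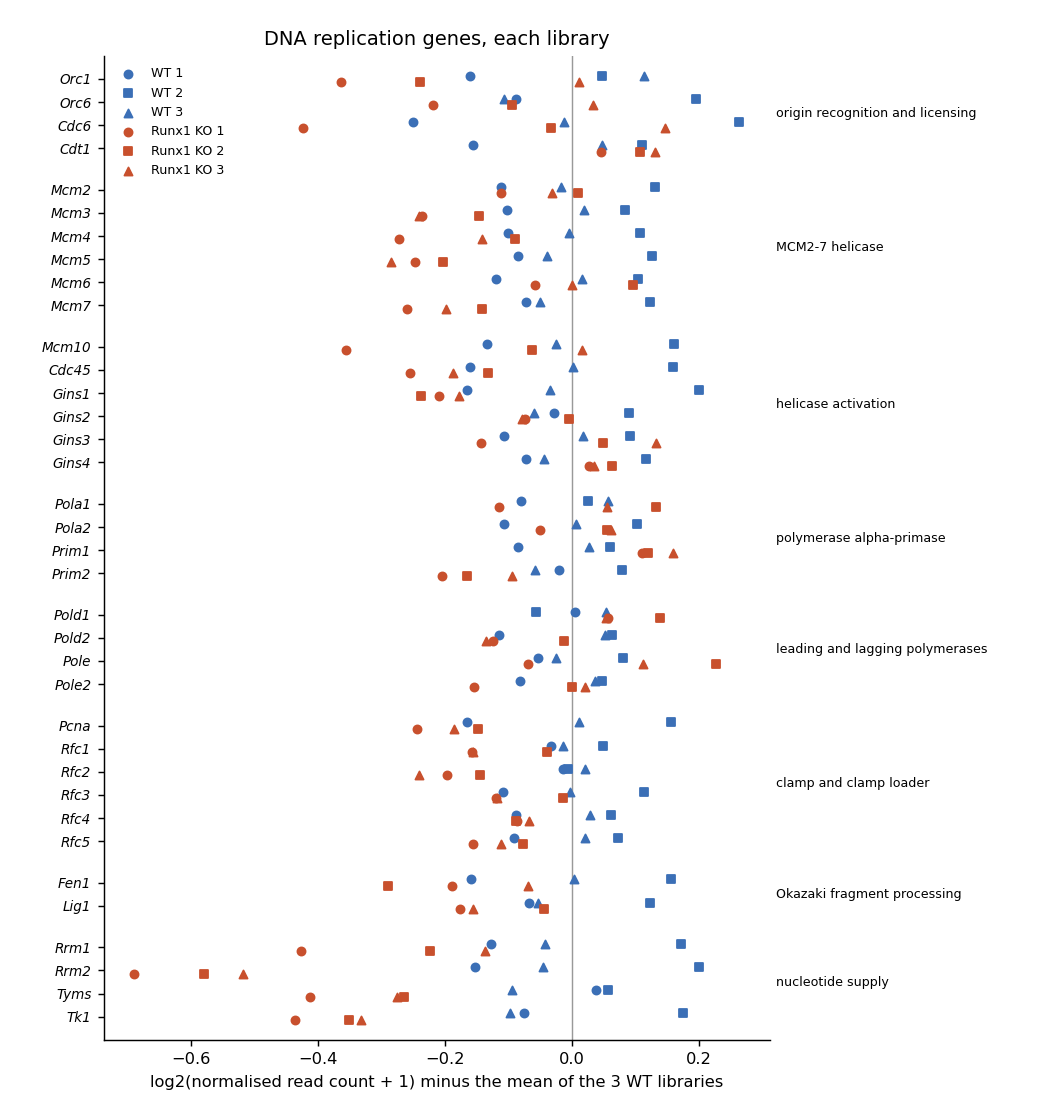
Log2(normalised read count + 1) of each replication gene in each library, minus the mean of the 3 WT libraries (0 on the axis); circles, squares and triangles are replicates 1, 2 and 3. WT replicate 2 lies farthest to the right for 28 of the 36 genes, and Rrm2, Tyms and Tk1 show the Runx1 KO libraries farthest to the left.

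To set library-wide shifts aside, each member was also divided by the geometric mean of the 36 members in its own library, a scale chosen after the values were seen and without a test. On it 8 members were lower in every Runx1 KO library than in every WT library, namely Mcm3, Mcm4, Mcm5, Mcm7, Rrm1, Rrm2, Tyms and Tk1. Measured against the same reference, 10.9% of all tested genes were lower in this sense. On the other side 10 members were higher without overlap, Cdt1, Mcm2, Mcm6, Gins3, Gins4, Pola1, Pola2, Prim1, Pold1 and Pole, where 32.0% of all tested genes were. The remaining 18 overlapped, among them all 6 clamp and clamp loader genes. Rrm2 went from 2.08, 2.30 and 2.10 times the members' mean in WT to 1.53, 1.53 and 1.60 in Runx1 KO, and Mcm6 from 4.97, 5.04 and 5.13 to 5.55, 5.70 and 5.34. Division by the members' own mean centres the set, so that members on both sides follow from the scale itself. It also moves all other genes up, because the members' mean was lower in Runx1 KO. Without this scale 21.9% of all tested genes were lower without overlap and 21.4% higher. The shares of the members and of all genes on this scale therefore cannot be set against each other. The lower side held 4 helicase subunits and all 4 nucleotide supply genes, and both sides are given as a description only.

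Other genes of the pathway were taken from lists chosen with earlier results of these data known. Of all tested genes 21.9% were called, 11.3% lower and 10.6% higher. In the lists below the share called was 2.27% for other replication genes and 11.1% for other nucleotide supply genes. It was 38.1% for E2F and G1-S regulators. Of 44 tested replication genes outside the 36, such as the single-strand binding RPA subunits, the licensing inhibitor Gmnn and the kinase genes Cdc7 and Dbf4, 1 was called, and it was lower. This was Asf1b, a histone chaperone of the replication fork, at 2899, 3167 and 3059 in WT and 1967, 2049 and 2146 in Runx1 KO, a log2 change of -0.57 (SE 0.06, limma adjusted p = 0.0027) that was called under all 18 alternatives. The median over these genes was -0.07, and it turned to 0.0079 with library totals as scaling. Without WT replicate 1, 4 of these genes were called lower (Asf1b, Gmnn, Rpa3 and Tipin), and with DESeq2 also 4 (Asf1b, Gmnn, Tipin and Uhrf1).

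Among 18 other nucleotide supply genes 2 were called, in opposite directions, and without WT replicate 1 Nme1 was called lower as well, with DESeq2 Rrm2b. Dck, the cytosolic deoxycytidine kinase, was counted at 3385, 2810 and 2819 in WT and at 2139, 2071 and 2132 in Runx1 KO, a log2 change of -0.50 (SE 0.08, limma adjusted p = 0.0084). Dguok, the mitochondrial deoxyguanosine kinase, was counted at 662, 590 and 667 in WT and at 918, 855 and 864 in Runx1 KO, a log2 change of 0.46 (SE 0.08, limma adjusted p = 0.0101). Neither overlapped between groups, and the ratio of their counts went from 5.12, 4.76 and 4.23 to 2.33, 2.42 and 2.47. This ratio was chosen after the values were seen. It must separate the groups where one gene is lower and the other higher without overlap, so it adds no support and carries no test.

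Of 21 E2F and G1-S regulators, 2 were called lower and 1 higher without Runx1 KO replicate 2 or without replicate 3. Of all tested genes 8.75% and 11.3% were then called. With all libraries, 5 of the regulators were called lower and 3 higher. The lower ones were E2f2 (-1.41), an activating E2F, E2f8 (-0.41), a repressing E2F, Rb1 (-0.51), the retinoblastoma protein gene that holds E2F in check, the S-phase cyclin gene Ccna2 (-0.36) and the phosphatase gene Cdc25a (-0.37). The higher ones were Mycn (1.31), Myc (0.63) and Tfdp2 (0.37), the last a dimer partner of E2F proteins. E2f1, the activator best known for replication genes, was not called (-0.09, limma adjusted p = 0.576). E2f2 was counted at 4433, 3302 and 2944 in WT and at 1560, 1155 and 1280 in Runx1 KO, so every Runx1 KO library was below the WT range.

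Of 18 mitosis genes, 10 were called lower and none higher, with a median of -0.30, and 5 were called with library totals as scaling. Leaving out 1 library gave 7 (WT replicate 1), 4 (WT replicate 2), 6 (WT replicate 3), 5 (Runx1 KO replicate 1), 2 (Runx1 KO replicate 2) or 4 (Runx1 KO replicate 3). In the same order, 16.2, 13.9, 15.1, 23.0, 8.75 and 11.3% of all tested genes were called. The 6 mitosis genes with the largest changes were Birc5 and Plk1 (both -0.47), Aurka (-0.41), Ccnb2 and Cdc20 (both -0.35) and Ccnb1 (-0.34). The share called, 55.6%, was above the 13.9% of the members and the 21.9% of all tested genes. Of 14 DNA damage response genes, 3 were called, or 21.4%, near the share of all tested genes. All 3 were higher, Atr (0.41), Atm (0.49) and Chek2 (0.49). None of these was called when Runx1 KO replicate 2 or replicate 3 was left out.

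**Figure D5:**
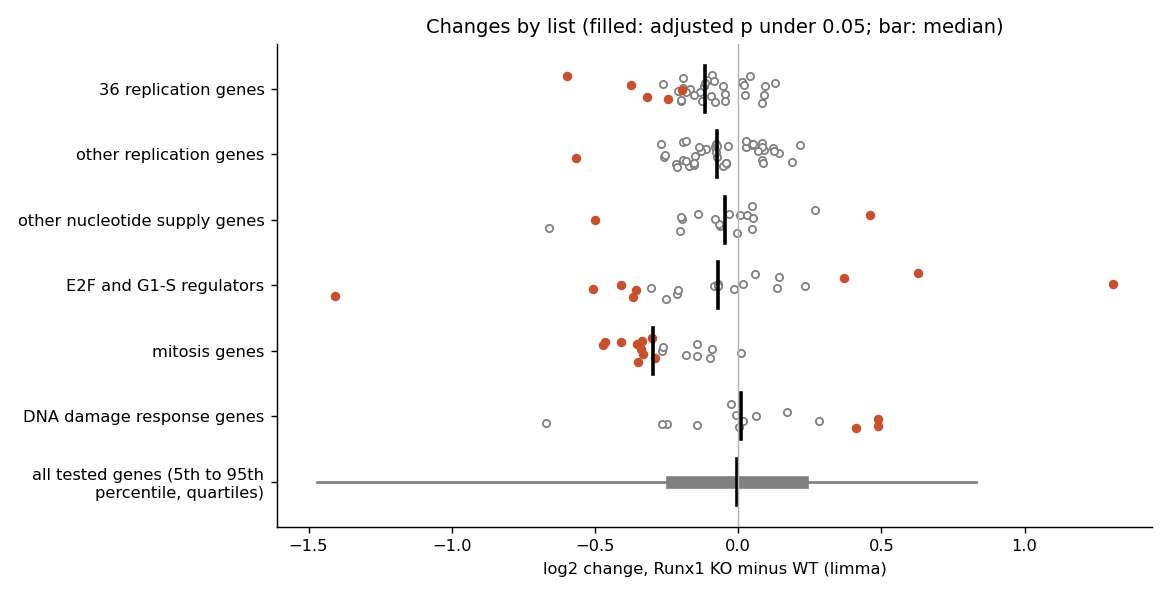
Log2 changes, Runx1 KO minus WT, of the 36 replication genes and of 5 other lists; each point is a gene, filled points passed an adjusted p of 0.05, and black bars are medians. For all tested genes the bar spans the quartiles and the line the 5th to 95th percentile. The replication genes and the other replication genes lie in narrow bands around medians of -0.12 and -0.07 (-0.03 and 0.0079 with library totals as scaling), and the mitosis genes around -0.30.

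Markers of blood cell types differed between the groups alongside these genes. Of 5 c-Kit+ progenitor markers 4 were called higher, Kit among them (0.60), and their sum was 30736 to 35496 normalised reads in WT and 46285 to 49478 in Runx1 KO; of 7 stem cell markers 6 were called higher, with sums of 2451 to 3428 and 5512 to 5894. Late neutrophil markers summed to 174288 to 278343 in WT and 31477 to 93818 in Runx1 KO, with 6 of 9 called lower. Early neutrophil markers summed to 158983 to 186778 and 139459 to 144775, with 4 of 6 called lower. Markers of maturing and early granulocytes were thus lower where stem and progenitor markers were higher. Monocyte and macrophage markers (3 of 7 lower) summed to 37384 to 40402 and 22036 to 29474. Basophil and mast cell markers (5 of 6 lower) summed to 6511 to 9346 and 2182 to 3767. The remaining marker, Cpa3, went the other way with a log2 change of 0.40, and it was called higher only without Runx1 KO replicate 3. This sum therefore joins opposite directions, and the median log2 change of the list was -3.97. B-lymphoid markers (7 of 10 lower) summed to 6929 to 30826 and 1190 to 3427, and T and NK markers (2 of 8 lower) to 6322 to 7055 and 4276 to 4636. The B-lymphoid sum was highest in replicate 1 of each group (30826 in WT and 3427 in Runx1 KO). The late neutrophil and the monocyte and macrophage sums were also highest in replicate 1 of each group. The sum of the 36 members was lowest in replicate 1 of each group (170336 and 157610), and a link between these was not tested. Erythroid markers had 3 of 11 lower, and their sums, 31059 to 45413 and 28229 to 46053, overlapped. Megakaryocyte markers had 3 of 5 higher, with sums of 3495 to 4377 and 4368 to 6644 that also overlapped. The counts of called markers moved with single libraries, and so did the share called among all tested genes. That share was 21.9% with all libraries and 23.0, 8.75 and 11.3% without Runx1 KO replicates 1, 2 and 3. Without WT replicates 1, 2 and 3 it was 16.2, 13.9 and 15.1%. Without Runx1 KO replicate 2 the counts of called markers were 2 for the c-Kit+ progenitor, 2 for the early neutrophil, 1 for the B-lymphoid, 1 for the T and NK and 0 for the megakaryocyte markers. Without Runx1 KO replicate 3 they were 2 for the early neutrophil, 2 for the B-lymphoid and 1 for the T and NK markers. Without Runx1 KO replicate 1 they were 10 for the B-lymphoid, 5 for the monocyte and macrophage and 7 for the T and NK markers, and 3 erythroid markers were then called higher. Without WT replicate 1 they were 5 for the monocyte and macrophage, 1 for the T and NK and 1 for the megakaryocyte markers, without WT replicate 2 they were 1 for the megakaryocyte markers, and without WT replicate 3 they were 4 for the B-lymphoid and 1 for the T and NK markers. The summed levels above do not rest on these calls. No marker was at 0 in any library, and Kit, which defines the labelled cells, was counted at 7979 to 8471 in WT and 11507 to 13684 in Runx1 KO. The part of these cell types in the differences of the replication genes was not tested.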

How the data were processed

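Poly-A RNA from 6 samples of mouse c-Kit+ bone marrow cells, 3 per genotype, was sequenced from stranded libraries, per the labels' protocols. The authors deposited a signal value per gene and library, and the submitters' processing notes name HISAT2, HTSeq 0.9.1 and mm10 (GRCm38) without their roles. The annotation, strand setting and normalization are not given in the sources used here, and the labels name no batch. In each deposited file 100% of the signal values were whole multiples of 1 step within a tolerance of 0.001, and the multiples were taken as recovered reads (23297526 to 26793380 per library); the deposited values are called normalised reads. Symbols matched 20077 of 20097 identifiers, and positions and exon lengths came from GENCODE M21, which held 20090.

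limma 3.58.1 (lmFit, eBayes with trend) was fitted to log2(normalised reads + 1) with group as the only term, two-sided, over the 15410 genes that passed filterByExpr (minimum count 10, minimum total 15), with Benjamini-Hochberg adjustment; it was tested on simulated data. This scale understates changes of weakly expressed genes. With 3 libraries against 3, an exact permutation test cannot go below 0.1, so none was run. The alternatives were edgeR 4.0.16 with TMM and DESeq2 1.42.0 on recovered reads, other scalings, pseudocounts and filters, removal of the 20 most abundant genes, a replicate block (in limma and in edgeR), and each library left out; leaving out WT replicate 1 and Runx1 KO replicate 1 together was chosen after seeing the data. All members are named, with full values for those past the threshold, the 6 largest changes and the lowest p in each role group; Pcna, Prim1 and Mcm6 were given in full after their values were seen. The members and lists were chosen with earlier results of these data known. Sequence copies were found with BLAST between GENCODE transcripts.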

Additional observations from a re-analysis of the deposited data

How the results depend on the processing

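Each member was refitted under 18 alternatives. Over the 11 that used all libraries, 378 of 396 changes kept their direction and side of the threshold, and over the 7 that left libraries out, 216 of 252 did. The 5 members called, all lower, became 3 with library totals as scaling, 3 after removal of the 20 most abundant genes and 8 with the replicate block in limma, but 4 with the same block in edgeR, where Mcm3 (adjusted p = 0.0517), Mcm7 (0.0509), Rrm1 (0.0507) and Rfc2 (0.059) missed the threshold. They were 4 with edgeR without the block, 7 with DESeq2, and 1 to 5 when a library was left out. Without WT replicate 1 and Runx1 KO replicate 1 together they were 2. Over the alternatives the share called among all tested genes ran from 8.75% (without Runx1 KO replicate 2) to 25.4% (DESeq2), beside 21.9% in the main fit. It was 24.4% with library totals as scaling and 23.8% after removal of the 20 most abundant genes, where fewer members were called. With the block it was 24.9% in limma and 23.9% in edgeR, and 21.2% with edgeR without the block. The replicate numbers were not taken to pair the libraries: same-numbered libraries correlated in their deviations at 0.287, 0.129 and -0.01, and not every library correlated best with its own number. No member was called higher in any alternative. Library totals moved the median of all genes to 0.08, turned the median of the other replication genes to 0.0079, and turned Mcm2 to 0.0377, Gins2 to 0.0294, Pole2 to 0.0376 and Rfc4 to 0.0012; removal of the 20 most abundant genes turned Mcm2 to 0.0275, Gins2 to 0.0192 and Pole2 to 0.0274. With libraries left out, changes near 0 crossed it for Mcm6 (-0.047 to 0.0646), Gins3 (-0.0477 to 0.0907), Pola1 (-0.03 to 0.0934), Pola2 (-0.0316 to 0.0728), Orc6 (-0.1564 to 0.0043), Cdc6 (-0.2294 to 0.0561), Mcm2 (-0.1007 to 0.0204) and Pole2 (-0.0859 to 0.0101). The causes were not tested. Leaving out a library also lowers the number of samples. With 3 libraries in a group the median half-width of a member's 95% interval was 0.18 on the log2 scale, which limits the differences that can be called.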
